A study of Mus musculus with 30 samples.

Results

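Endothelial cells line the vessels, the lymphatics and the chambers of the heart, and in the working left ventricle most of them lie in capillaries between cardiomyocytes. They are told from other cells by a set of receptors, adhesion molecules and secreted proteins that are transcribed together, in large part through transcription factors of the ETS, GATA and SOX families. The 10 genes described here, *Pecam1*, *Cdh5*, *Kdr*, *Flt1*, *Tek*, *Tie1*, *Nos3*, *Vwf*, *Eng* and *Emcn*, were taken by name as members of that set. Their rows were read from 49671 genes counted in one table and from 56386 rows in the other. Of these 56386 rows, 55263 were genes and 1123 were single transcripts missing from the annotation. All 10 passed the filter on low counts, which asked for 10 counts per heart on average, in both tables, and the lowest count of any of them in any heart was 128.

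Gene expression was measured by sequencing total RNA from the left ventricle of 30 male C57BL6J mice in 2 studies. In the peptide study, 7 mice were given Aβ42, a recombinant human amyloid beta peptide, and 7 were given ScrAβ42, a peptide of the same residues in scrambled order, injected intraperitoneally once a day for 4 weeks, starting at 12 weeks of age. The labels give this age and a dose of 1 mg of peptide. The methods of the study have another unit for the dose, and a range of starting ages that ends at 12 weeks. In the antibody study, 8 mice were given 3D6, an antibody that neutralises Aβ42, and 8 were given a control antibody, also from an age of 12 weeks or just after. By the methods antibody treatment ran for longer than 4 weeks, so these mice were older when the hearts were taken. The design text has both antibody groups receiving Aβ42 as well, whereas the methods have both groups fed a high-fat diet during antibody treatment. The methods name no peptide for these mice, and the difference between the 2 accounts was not settled here. The comparisons ask whether raised or neutralised circulating Aβ42 goes with a change in the endothelial genes of the ventricle.

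Values are CPM (read counts scaled to a common library total) after TMM scaling, and a log2 fold change is the treated group relative to its control. Total counts were 4478991 to 6015767 per heart in the peptide study and 6397192 to 8310478 in the antibody study. Counting error for the endothelial genes was therefore 2.37% to 7.13% of the mean, below the spread between hearts of a group for every gene except *Tek* with 3D6, where hearts differed by 5.41% and counting error was 5.75%. The heart named Abeta42_3457 in the labels stood apart, with a TMM factor of 1.22 against 0.922 to 1.11 in the other peptide hearts and 12.9% of counts on mitochondrial genes. In the antibody study the heart of mouse 22 (control antibody) had the lowest mitochondrial share, 25.9%. A whole ventricle holds many cell types, so fewer endothelial cells and less RNA per endothelial cell cannot be told apart in these values. Defining markers of cardiomyocytes were abundant in every heart, with a summed level of 44930 CPM or more for 8 genes, as heart muscle implies. This does not check for atrial tissue, and atrial markers, which reached a sum of 8417 CPM in Abeta42_3457, are described below.

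Sequences are shown for 4 of the genes, because the promoter is where transcription factors shared by endothelial genes would act. RefSeq start sites (GRCm38.p6) matched *Eng*, *Emcn*, *Tek*, *Tie1*, *Kdr* and *Flt1*, and the other 4 genes were not matched in the promoter set used. The 250 bases before the start were searched on both strands for the ETS words AGGAAG and CGGAAG, for the GATA word AGATAA and for the SOX word AACAAT. The sequences run 5′ to 3′ on the strand of the gene, and capitals mark ETS words or their reverse complements. They lie at chr5:147726012-147726261 (*Flt1*, minus strand), chr4:94739039-94739288 (*Tek*, plus strand), chr2:32646345-32646594 (*Eng*, plus strand) and chr3:137340828-137341077 (*Emcn*, plus strand).
Flt1: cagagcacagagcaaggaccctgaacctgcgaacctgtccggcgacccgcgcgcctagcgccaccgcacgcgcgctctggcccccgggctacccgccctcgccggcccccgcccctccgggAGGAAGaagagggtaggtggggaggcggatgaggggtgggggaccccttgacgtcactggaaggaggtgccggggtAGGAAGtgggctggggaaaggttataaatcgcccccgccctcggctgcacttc
Tek: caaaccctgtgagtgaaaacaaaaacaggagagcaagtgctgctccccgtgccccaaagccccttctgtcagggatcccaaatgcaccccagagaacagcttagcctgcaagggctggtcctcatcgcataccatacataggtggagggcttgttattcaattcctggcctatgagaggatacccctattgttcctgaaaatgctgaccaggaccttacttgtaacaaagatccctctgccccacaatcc
Eng: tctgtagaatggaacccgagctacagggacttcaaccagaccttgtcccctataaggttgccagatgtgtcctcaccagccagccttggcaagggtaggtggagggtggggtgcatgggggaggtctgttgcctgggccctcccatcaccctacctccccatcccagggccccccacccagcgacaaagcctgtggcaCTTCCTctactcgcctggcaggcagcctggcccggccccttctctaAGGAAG
Emcn: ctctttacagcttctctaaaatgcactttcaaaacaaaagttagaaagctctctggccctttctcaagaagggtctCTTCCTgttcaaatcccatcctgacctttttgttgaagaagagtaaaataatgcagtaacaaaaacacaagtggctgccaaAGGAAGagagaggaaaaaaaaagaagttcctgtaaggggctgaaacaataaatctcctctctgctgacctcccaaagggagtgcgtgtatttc
*Flt1*, *Eng*, *Emcn* and *Tie1* each held 2 ETS words in this window, and *Tek* and *Kdr* held 0. Of 32851 RefSeq promoters of the same length, 39.2% held at least 1 ETS word. *Tek* and *Emcn* each held 1 SOX word, present in 9.42% of promoters, and none of the 6 held the GATA word, present in 9.99%. No ETS word overlapped another. A word is a description of these letters, not of a bound site.

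*Kdr* and *Flt1* encode receptors for vascular endothelial growth factor (VEGF). KDR, also called VEGFR2, carries most of the growth and permeability signal, and FLT1, or VEGFR1, binds VEGF-A tightly and limits it. *Kdr* lies on the minus strand of chromosome 5 (GRCm38), from 75932827 to 75978458, and *Flt1* on the same strand of chromosome 5 from 147561604 to 147726011.

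*Kdr* was 81.3, 123 and 158 CPM (lowest, median, highest of 7) with Aβ42 and 94.5, 130.0 and 160 CPM with ScrAβ42, so that the groups overlapped over almost their whole range. The means were 118 ± 27.1 CPM and 129 ± 22.2 CPM (SD, n = 7 each). This was a log2 fold change of -0.13 (standard error 0.145, adjusted p = 0.920 by the quasi-likelihood test of edgeR, with Benjamini-Hochberg adjustment over all genes tested). For the antibody *Kdr* was 161, 185 and 247 CPM with 3D6 and 170, 205 and 261 CPM with the control antibody, a log2 fold change of -0.14 (standard error 0.109, edgeR adjusted p = 0.946). Neither difference exceeded the spread between hearts. Leaving out 1 heart moved the peptide value to between -0.21 (without Abeta42_3460) and -0.05 (without Abeta42_3457), and the antibody value to -0.09 without mouse 11 (control antibody).

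*Flt1* was 159, 253 and 309 CPM with Aβ42 and 213, 257 and 286 CPM with ScrAβ42. Its means, 241 ± 51.1 and 256 ± 26.5 CPM (SD, n = 7 each), gave a log2 fold change of -0.08 (standard error 0.126, edgeR adjusted p = 0.945), and 3 Aβ42 hearts lay below every ScrAβ42 heart while 1 lay above. Without Abeta42_3457 the log2 fold change was -0.0048, and without Abeta42_3460 it was -0.15. With 3D6 *Flt1* was 93.9, 108 and 123 CPM, against 92.3, 123 and 164 CPM with the control antibody. All 8 3D6 hearts were below the control median, although 2 control hearts were below every 3D6 heart, and the log2 fold change of -0.17 (standard error 0.112) had an edgeR adjusted p of 0.946 and was -0.09 without mouse 22 (control antibody).

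The antibody table was deposited per transcript, which separates the membrane receptor from a short *Flt1* transcript. Flt1-202, with 30 exons and 3999 coding bases, encodes the full receptor, and Flt1-203, with 13 exons and 2064 coding bases, reads on past the end of exon 13 into the intron. A short form of this kind is known to give a soluble receptor that binds VEGF without signalling. The last 15 shared bases are printed in lower case and the first 30 of each transcript's own bases in capitals, all of them coding and on the minus strand of chromosome 5. The own bases of Flt1-202 lie at chr5:147634494-147634523 and those of Flt1-203 at chr5:147639195-147639224.
Flt1-202: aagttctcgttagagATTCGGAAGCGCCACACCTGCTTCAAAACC
Flt1-203: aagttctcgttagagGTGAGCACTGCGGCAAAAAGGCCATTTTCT
The share of *Flt1* estimated counts on Flt1-202 was 79.1% ± 3.62 with 3D6, against 79.0% ± 2.10 with the control antibody (SD, n = 8 each), and the share on Flt1-203 was 20.6% ± 3.54 and 20.9% ± 2.07. The difference in the Flt1-202 share was 0.141 percentage points (two-sided exact permutation p = 0.924, 8 against 8 hearts), and the individual shares, 74.2% to 83.8% and 76.1% to 81.8%, overlapped throughout. *Kdr*, in contrast, had 99.5% and 99.4% of its counts on Kdr-201.

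*Tek* and *Tie1* encode the TIE receptors. TEK, or TIE2, binds angiopoietins and keeps the vessel wall quiescent, and TIE1 is a partner that forms complexes with it. *Tek* lies on the plus strand of chromosome 4 from 94739289 to 94874976, and *Tie1* on the minus strand from 118471191 to 118490061.

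*Tek* was 42.0, 57.0 and 72.6 CPM with Aβ42 and 59.6, 61.8 and 71.7 CPM with ScrAβ42. In the Aβ42 group 5 of 7 hearts were below every ScrAβ42 heart and 1 was above all of them, so the Aβ42 group was wider, with a coefficient of variation of 17.1% against 7.35%. The log2 fold change was -0.15 (standard error 0.0985, edgeR adjusted p = 0.823), and -0.09 without Abeta42_3457. With 3D6 it was 37.9, 40.1 and 44.4 CPM, against 37.9, 44.8 and 51.3 CPM in controls. All 8 3D6 hearts were below the control median and 5 control hearts were above every 3D6 heart. The log2 fold change, again -0.15 (standard error 0.0741), did not pass adjustment (edgeR adjusted p = 0.946), and the two-sided exact permutation test on log2 CPM for this gene alone gave p = 0.0309. This and the other permutation p-values of single genes are not adjusted for the number of genes, and with the antibody they were 0.216 for *Kdr*, 0.203 for *Flt1*, 0.344 for *Cdh5*, 0.105 for *Eng* and 0.761 for *Vwf* by the same exact test.

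*Tie1* was 94.8, 133 and 165 CPM with Aβ42 and 124, 143 and 170 CPM with ScrAβ42 (log2 fold change -0.14, standard error 0.107, edgeR adjusted p = 0.860). Only 1 Aβ42 heart, Abeta42_3457, fell below the ScrAβ42 range, and without it the value was -0.07. With 3D6 it was 73.5, 82.8 and 87.9 CPM and with the control antibody 81.9, 88.4 and 126 CPM (log2 fold change -0.19, standard error 0.0934, edgeR adjusted p = 0.946, exact permutation p = 0.0457). The 3D6 hearts were close together, with a coefficient of variation of 5.95%, and all 8 were below the control median. Without mouse 22 of the control group the value was -0.11.

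*Pecam1* and *Cdh5* encode junction proteins. PECAM1 (CD31) is an adhesion molecule at endothelial borders that platelets and leukocytes also carry, and CDH5 (VE-cadherin) is the cadherin of the endothelial adherens junction. *Pecam1* lies on the minus strand of chromosome 11 from 106654217 to 106750628, and *Cdh5* on the plus strand of chromosome 8 from 104101625 to 104144511, where the annotated antisense gene *Gm29682* overlaps it.

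*Pecam1* was 183, 200 and 315 CPM with Aβ42 and 166, 182 and 225 CPM with ScrAβ42. All 7 Aβ42 hearts were above the ScrAβ42 median, 3 of them above every ScrAβ42 heart, and the log2 fold change was 0.22 (standard error 0.122, edgeR adjusted p = 0.795, exact permutation p = 0.133). The highest value came from Abeta42_3457, and without it the log2 fold change was 0.11. With 3D6 *Pecam1* was 110, 122 and 134 CPM, against 120, 143 and 173 CPM with the control antibody. All 8 3D6 hearts were below the control median and 6 of 8 control hearts were above every 3D6 heart. This log2 fold change of -0.23 (standard error 0.0844) had the smallest unadjusted p of the 10 genes, 0.0134 by edgeR, with an exact permutation p of 0.00979, and an adjusted p of 0.946 over all genes.

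*Cdh5* was 120, 178 and 266 CPM with Aβ42 and 158, 193 and 224 CPM with ScrAβ42, with 3 Aβ42 hearts below and 1 above the whole ScrAβ42 range (log2 fold change -0.10, standard error 0.140, edgeR adjusted p = 0.941). Without Abeta42_3457, which had the lowest value, it was -0.02, and without Abeta42_3452 it was -0.22. With 3D6 it was 167, 191 and 231 CPM and with the control antibody 181, 206 and 258 CPM (log2 fold change -0.08, standard error 0.0917, edgeR adjusted p = 0.946). The antibody groups overlapped for 6 of 8 3D6 hearts, and the value was -0.03 without mouse 22 and -0.05 without mouse 24 (3D6).

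*Eng* encodes endoglin, a co-receptor for BMP9 and TGF-β ligands, and *Emcn* encodes endomucin, a surface sialomucin found mainly on capillary and venous endothelium. *Eng* lies on the plus strand of chromosome 2 from 32646595 to 32682669 and overlaps *Fpgs* on the opposite strand and 3 small RNA genes. *Emcn* lies on the plus strand of chromosome 3 from 137341067 to 137432185.

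*Eng* was 171, 249 and 286 CPM with Aβ42 and 183, 222 and 238 CPM with ScrAβ42, and 5 Aβ42 hearts were above every ScrAβ42 heart while 1 was below all of them (log2 fold change 0.17, standard error 0.107, edgeR adjusted p = 0.824). With 3D6 it was 218, 233 and 266 CPM and with the control antibody 215, 252 and 427 CPM. The control maximum was mouse 22, and the log2 fold change of -0.21 (standard error 0.118, edgeR adjusted p = 0.946) was -0.08 without it.

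*Emcn* was 29.4, 41.8 and 51.2 CPM with Aβ42 and 24.8, 32.9 and 43.3 CPM with ScrAβ42. Its log2 fold change of 0.34 (standard error 0.136) was the largest of the 10 genes in the peptide study, with 6 of 7 Aβ42 hearts above the ScrAβ42 median. The edgeR p was 0.0234 before adjustment and 0.708 after it, and the exact permutation p was 0.0490. With 3D6 *Emcn* was 23.6, 30.5 and 33.1 CPM, against 28.3, 34.7 and 43.0 CPM in controls, with all 8 3D6 hearts below the control median (log2 fold change -0.25, standard error 0.0955, edgeR adjusted p = 0.946, exact permutation p = 0.0193). The 2 comparisons used different mice and no shared controls, and their difference was not tested.

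*Nos3* encodes endothelial nitric oxide synthase, which makes the nitric oxide that relaxes vessels. It lies on the plus strand of chromosome 5 from 24364810 to 24384474, overlapping *Atg9b* and the antisense gene *Gm15587* on the other strand. *Nos3* was 27.4, 37.5 and 56.7 CPM with Aβ42 and 26.8, 40.4 and 49.1 CPM with ScrAβ42. The Aβ42 mean was higher, 42.9 ± 11.2 against 39.4 ± 8.38 CPM (SD, n = 7 each), and the Aβ42 median was lower, which gave a log2 fold change of 0.13 (standard error 0.170, edgeR adjusted p = 0.938). Leaving out 1 heart gave 0.04 (without Abeta42_3457) to 0.21 (without Abeta42_3460). With 3D6 it was 30.4, 40.8 and 45.2 CPM and with the control antibody 37.1, 44.2 and 69.3 CPM. This was the largest difference of the 10 genes in the antibody study, a log2 fold change of -0.26 (standard error 0.120, edgeR p = 0.0450 unadjusted and 0.946 adjusted, exact permutation p = 0.0622), and -0.15 without mouse 22.

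*Vwf* encodes von Willebrand factor, the clotting protein that endothelial cells store in Weibel-Palade bodies, which is patchy among capillaries and richer in larger vessels and veins. It lies on the plus strand of chromosome 6 from 125546774 to 125686679. *Vwf* was 116, 143 and 283 CPM with Aβ42 and 51.1, 160 and 262 CPM with ScrAβ42 (log2 fold change 0.24, standard error 0.303, edgeR adjusted p = 0.929), and leaving out 1 heart gave 0.09 (without ScrAbeta42_3449) to 0.43 (without ScrAbeta42_3441). It was 20.6, 47.7 and 90.1 CPM with 3D6 and 25.2, 51.1 and 110 CPM with the control antibody (log2 fold change -0.14, standard error 0.305, edgeR adjusted p = 0.953), with -0.28 (without mouse 12, 3D6) to 0.05 (without mouse 22) on leaving out 1 heart. *Vwf* varied most from heart to heart in all 4 groups, with a coefficient of variation of 38.2% to 50.6%, against at most 26.1% for the other 9 genes. Platelets also hold VWF, and their 8 markers summed to between 4.51 and 35.0 CPM over all hearts. Over the 16 antibody hearts *Vwf* had an r of 0.17 with the platelet score (permutation p = 0.539, adjusted p = 0.909 over 70 relations, rho = 0.10 with permutation p = 0.702). Without the 2 hearts farthest in that score, r was -0.06. For the peptide only 2 platelet markers passed the filter and no score was formed.

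**Figure D1:**
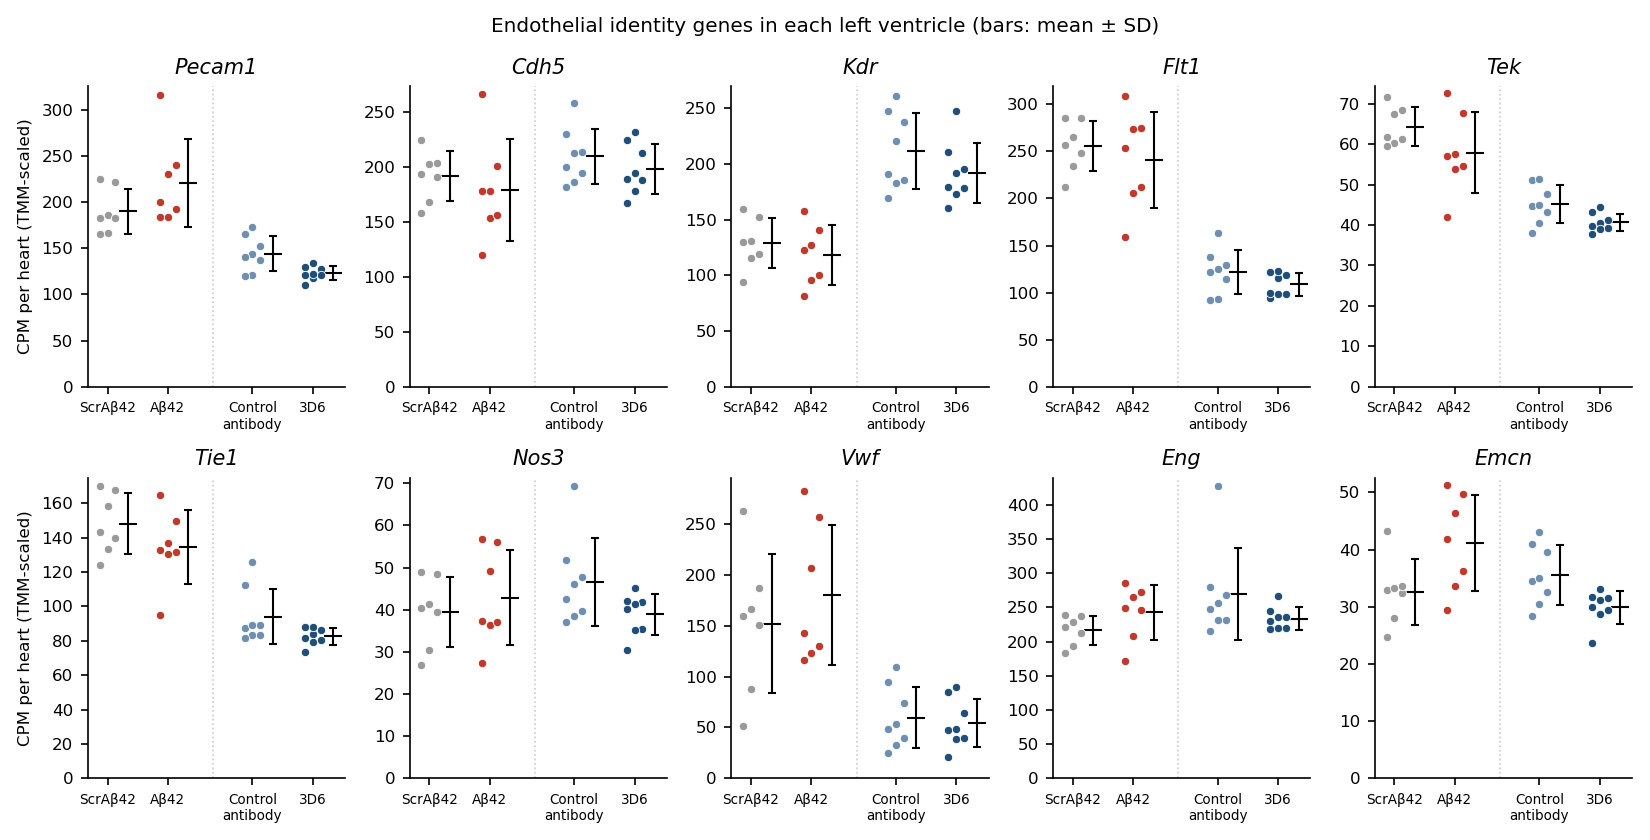
CPM of each endothelial gene in every left ventricle, with 1 point per mouse, black bars for the mean ± SD, and a dotted line between the studies (n = 7, 7, 8 and 8). The points of treated and control hearts overlap in every panel, *Vwf* is spread widely in all 4 groups, and single high points mark *Pecam1* in Abeta42_3457 (315.3 CPM) and *Eng* in mouse 22 (427.1 CPM).

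Across the 10 genes, 0 passed an adjusted p of 0.05 in either study by edgeR, where 0.0% of 11985 genes (peptide) and 0.0% of 12274 genes (antibody) did so. DESeq2 called 12 genes for the peptide and 0 for the antibody, and none of the 10 was among its calls. Before adjustment, 1 of 10 (*Emcn*) had p under 0.05 in the peptide study, where 6.51% of all genes did, and 3 of 10 (*Pecam1*, *Emcn* and *Nos3*) in the antibody study, where 3.64% did. None of the 10 had groups that did not overlap, which held for 0.0918% of genes with the peptide and 0.0% with the antibody.

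In the peptide study 5 genes had a positive and 5 a negative log2 fold change, where 49.5% of all genes were lower with Aβ42. *Pecam1*, *Nos3*, *Vwf*, *Eng* and *Emcn* were positive and *Cdh5*, *Kdr*, *Flt1*, *Tek* and *Tie1* negative, with a median of 0.02 beside 0.0015 over all genes. With 3D6 all 10 were negative, between -0.26 and -0.08, with a median of -0.18 beside -0.0098 over all genes, of which 52.6% were lower with 3D6. Without mouse 22 of the control group the median was -0.12 and *Vwf* was positive. These signs and medians are a description of genes that share hearts and cells, and they carry no test.

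**Figure D2:**
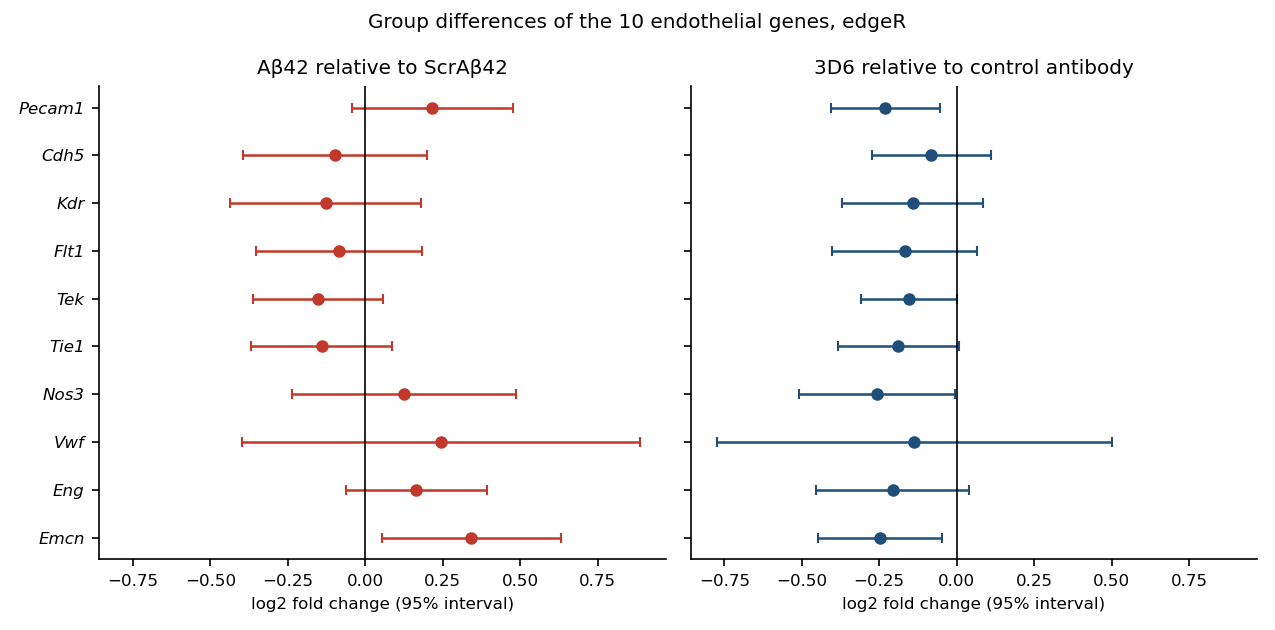
Log2 fold change of each gene with its 95% confidence interval from edgeR, Aβ42 relative to ScrAβ42 on the left and 3D6 relative to the control antibody on the right. Points fall on both sides of 0 in the peptide study and all below 0 in the antibody study, and no gene passed after adjustment over all genes in either.

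Gene lengths allow the levels of the 10 genes to be compared as CPM per kilobase of merged exons. With ScrAβ42 the highest was *Eng*, at 53.4 ± 5.29 CPM per kilobase (SD, n = 7), followed by *Cdh5* (45.5 ± 5.31), *Pecam1* (30.5 ± 3.88) and *Tie1* (30.1 ± 3.58). *Flt1* (18.9 ± 1.96), *Kdr* (14.3 ± 2.46) and *Tek* (13.7 ± 1.00) came next, and *Nos3* (9.55 ± 2.03), *Vwf* (9.47 ± 4.25) and *Emcn* (6.03 ± 1.06) were lowest. The means of *Pecam1* and *Tie1*, of *Kdr* and *Tek*, of *Tek* and *Vwf*, of *Nos3* and *Vwf* and of *Vwf* and *Emcn* were closer than the larger of their SDs. The order with Aβ42 was the same except that *Vwf* and *Nos3* changed places.

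Among the antibody hearts *Eng* and *Cdh5* were again the highest, at 66.6 ± 16.5 and 49.8 ± 5.97 CPM per kilobase with the control antibody (SD, n = 8). *Kdr* came next at 23.5 ± 3.79, level with *Pecam1* at 23.2 ± 3.04, and *Flt1* was far lower at 9.05 ± 1.73. The ratio of *Kdr* to *Flt1* per kilobase was 0.526 to 0.930 over the 14 peptide hearts, with a median of 0.751, and 2.01 to 3.41 over the 16 antibody hearts, with a median of 2.69. *Kdr* was therefore below *Flt1* in every heart of one study and above it in every heart of the other. On the log2 CPM scale the antibody hearts were 0.72 higher for *Kdr*, whereas the difference was -1.10 for *Flt1* and -1.56 for *Vwf*. Over 11361 genes tested in both studies the median difference was -0.61, with the 5th percentile at -1.44 and the 95th at 0.69. The tables were made and scaled separately. The studies also differ in treatment and, by the methods, in diet, length of treatment and age when hearts were taken. What moves these levels therefore cannot be told apart. For the antibody hearts the order partly depends on the length used, since with each transcript's own length *Pecam1* moved ahead of *Kdr*, and the lower places, *Nos3*, *Tek*, *Flt1*, *Emcn* and *Vwf* by merged exons, became *Emcn*, *Flt1*, *Vwf*, *Nos3* and *Tek*, with *Kdr* still above *Flt1* at 35.9 against 18.2 CPM per kilobase in controls.

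The remaining transcripts of the 10 genes were also compared in the antibody study, by the share of each gene on its most counted transcript. *Cdh5* and *Nos3* were each counted almost wholly on 1 transcript, with a mean of at least 96.9% in either group, and *Tie1* on Tie1-201 with 85.9% ± 2.73 and 88.1% ± 3.91 (SD, n = 8 each). *Tek*, *Pecam1*, *Eng* and *Emcn* were divided among 2 or more coding transcripts, and such shares are estimates. *Tek* was the least settled, with 18.6% to 62.3% on Tek-203 in 3D6 hearts and 13.7% to 72.9% in controls. *Vwf* had 63.0% and 57.6% on Vwf-203, the 52-exon coding transcript, and 36.1% and 41.2% on Vwf-210, which is annotated as a target of nonsense-mediated decay. The Vwf-203 difference of 5.40 percentage points was 0.852 without mouse 22 (control antibody), and the Tie1-201 difference of -2.17 was -1.20 without mouse 11 (control antibody). None of the 10 shares passed a test between 3D6 and control. The smallest two-sided exact permutation p was 0.0959, for Emcn-201 (49.0% against 53.5% of *Emcn*), which was 0.959 adjusted over the 10 shares.

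**Figure D3:**
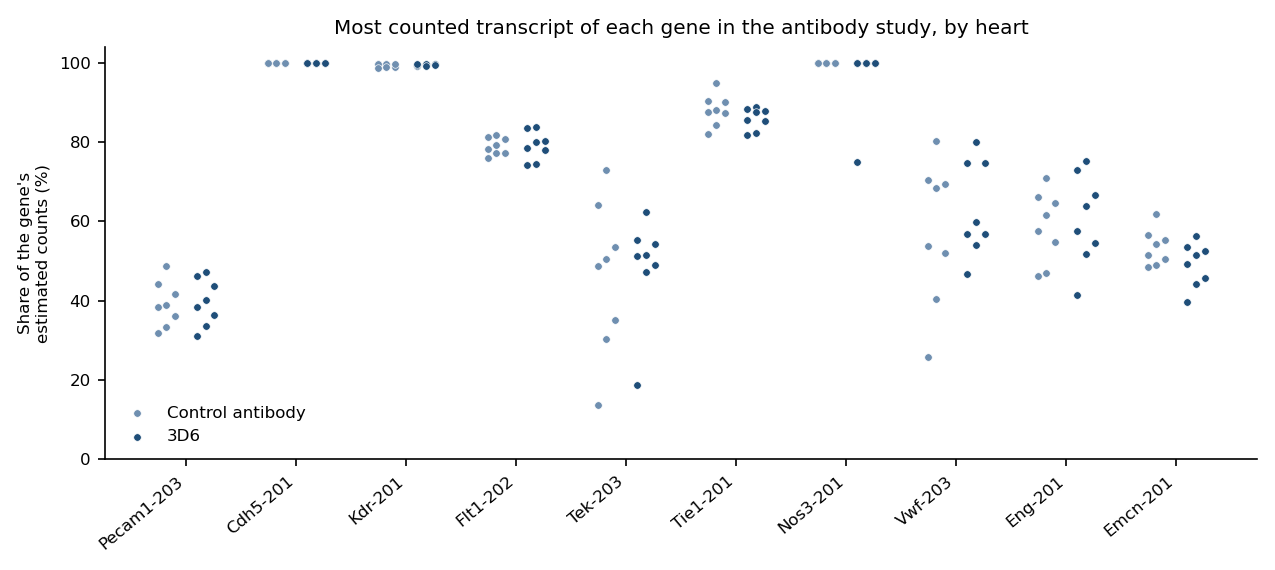
Share of each gene's estimated counts on its most counted transcript, with 1 point per heart of the antibody study (8 control antibody, 8 3D6). *Cdh5* and *Kdr* stay near 100% in every heart, *Flt1* near 79%, and *Tek* and *Vwf* scatter widely in both groups.

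The 10 genes did not vary together from heart to heart in the peptide study. Correlations of log2 CPM were taken over the 14 hearts after group means were subtracted, for 45 pairs of genes, and p-values are from permutation of hearts within groups, adjusted over the 45 pairs. The pairs split into the same 5 and 5 genes as the signs of the fold changes, a split that was seen in these values and is not tested as such. The 20 pairs within *Cdh5*, *Kdr*, *Flt1*, *Tek* and *Tie1* or within *Pecam1*, *Nos3*, *Vwf*, *Eng* and *Emcn* were all positive, with a median r of 0.77, and 13 of them passed. The 25 pairs across the split were all negative, with a median r of -0.45, and 4 of them passed.

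The closest pair was *Cdh5* and *Tek* (r = 0.925, permutation p = 0.00011, adjusted p = 0.00247, rho = 0.91 with permutation p = 0.00015). Without the 2 hearts farthest from the median of *Cdh5*, r was 0.79. For each pair the 2 hearts left out were those farthest in the gene that comes first in the opening list. They can therefore differ between pairs. *Kdr* and *Tek* were alike (r = 0.87, permutation p = 5e-05, adjusted p = 0.00225, rho = 0.93 with permutation p = 1e-05, the smallest possible), with r = 0.84 without the 2 hearts farthest in *Kdr*. So were *Eng* and *Emcn* (r = 0.81, permutation p = 0.00051, adjusted p = 0.00459, rho = 0.82 with permutation p = 0.00119), with r = 0.66 without the 2 hearts farthest in *Eng*. The most opposed were *Flt1* and *Pecam1* (r = -0.875, permutation p = 0.00047, adjusted p = 0.00459, rho = -0.82 with permutation p = 0.00121), with r = -0.70 without the 2 hearts farthest in *Pecam1*. *Pecam1* and *Tie1*, at r = -0.73 (permutation p = 0.0115, adjusted p = 0.0304, rho = -0.63 with permutation p = 0.0185), dropped to -0.29 without the same 2 hearts farthest in *Pecam1*, so that this relation rests on those hearts. Without Abeta42_3457 the within-set pairs were still all positive, with a median r of 0.64, and 24 of the 25 across-set pairs were negative, with a median of -0.34.

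The same split was not seen in the antibody study. Over its 16 hearts 18 of the 20 within-set pairs and 23 of the 25 across-set pairs were positive, with median r of 0.54 and 0.37, and 4 and 3 of these passed adjustment over 45 pairs. *Tie1*, which followed *Tek* in the peptide hearts (r = 0.87), here went with *Nos3* (r = 0.82, permutation p = 0.00063, adjusted p = 0.00945, rho = 0.75 with permutation p = 0.00169, and r = 0.77 without the 2 farthest hearts) and *Emcn* (r = 0.75, permutation p = 0.00092, adjusted p = 0.0103, rho = 0.73 with permutation p = 0.00151, and r = 0.62 without them). Without mouse 22, 17 of the 20 within-set and 17 of the 25 across-set pairs were positive, with medians of 0.41 and 0.16. The difference between the studies in these correlations was not tested.

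**Figure D4:**
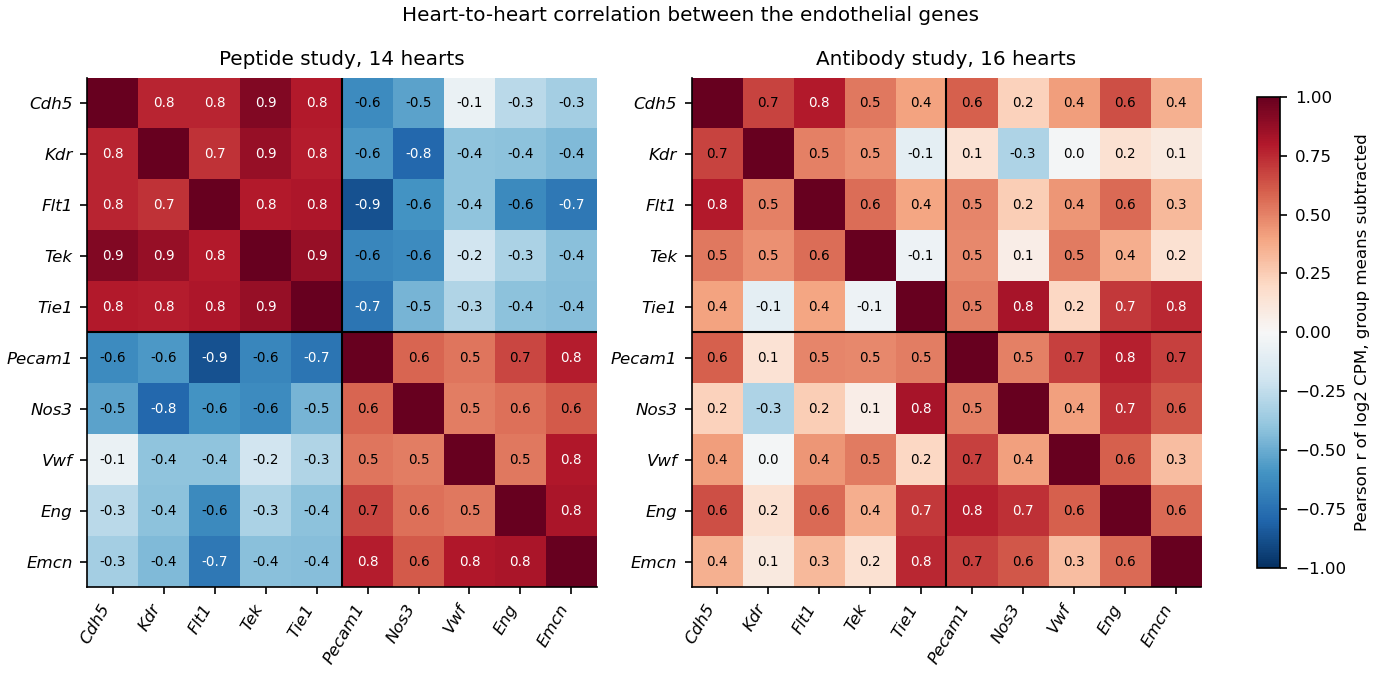
Pearson r between the endothelial genes over hearts, with group means subtracted, for 14 peptide hearts and 16 antibody hearts. Black lines separate the 2 sets of 5 genes. In the peptide study the blocks within a set are positive and the blocks between sets negative, and in the antibody study 41 of 45 pairs are positive.

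Markers of other cell types varied between the peptide hearts, and some of the endothelial genes varied with them. The summed level of 5 atrial markers (*Sln*, *Myl7*, *Myl4*, *Bmp10* and *Mybphl*), genes of atrial rather than ventricular muscle, was 12.4 to 8417 CPM with Aβ42 (median 1158) and 3.82 to 3665 CPM with ScrAβ42 (median 10.5). All 5 had a higher mean with Aβ42, with a median log2 fold change of 2.31, none was at 0 in all hearts, and none passed (smallest edgeR adjusted p = 0.639). The 4 highest sums were in Abeta42_3457, Abeta42_3455, Abeta42_3458 and ScrAbeta42_3448, at 8417, 4707, 4357 and 3665 CPM. These same 4 hearts had the 4 lowest *Flt1* values of the study (159.2, 212.1, 206.2 and 212.7 CPM), the 4 lowest *Cdh5* values (119.5, 153.2, 156.4 and 158.3 CPM) and the 4 highest *Pecam1* values (315.3, 239.8, 230.4 and 224.9 CPM). They also had the 4 lowest *Tie1* values, whereas in *Kdr*, *Tek*, *Nos3*, *Vwf*, *Eng* and *Emcn* they were neither the 4 lowest nor the 4 highest. The same 4 hearts also had the 4 highest fibroblast sums (1123 to 2188 CPM, next 1095), the 4 lowest cardiomyocyte sums (44930 to 70680 CPM, next 73880) and the 4 highest TMM factors (1.02 to 1.22, the fifth being 1.0169), so that these measures cannot be told apart in them. These genes and hearts were singled out after their values were seen.

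Once the score of the atrial markers was added to the model, the log2 fold changes of *Cdh5*, *Kdr*, *Flt1* and *Tie1* became 0.13, 0.06, 0.10 and 0.0055, that of *Nos3* became -0.03 and that of *Pecam1* became 0.04, and none of the 10 genes had an unadjusted p under 0.05. With the cardiomyocyte score in its place no sign turned and 1 gene kept an unadjusted p under 0.05, while *Pecam1* was 0.13, *Cdh5* -0.05, *Kdr* -0.06, *Flt1* -0.02, *Tie1* -0.08 and *Nos3* 0.04. Among antibody hearts the same markers summed to 1.05 to 668 CPM with 3D6 and 0.821 to 2776 CPM with the control antibody (medians 98.5 and 2.88), and the 10 genes stayed negative with the score in the fit, between -0.26 and -0.09. The highest sum was in mouse 15 (control antibody), where the other 15 hearts were at 668 CPM or less. All 4 atrial markers tested were lower with 3D6 (median log2 fold change -0.97), but all 4 were higher without mouse 15 (2.88), and without it the 10 genes were all negative, with a median of -0.21. Adipocyte markers also differed between peptide hearts, and 5 of them summed to 0.397 to 521 CPM with Aβ42 and 0 to 48.6 CPM with ScrAβ42. Of these markers, 4 of 4 tested were higher with Aβ42 (median log2 fold change 2.49, smallest edgeR adjusted p = 0.551). The 5 markers of mesothelium summed to 23.4 to 171 and 22.7 to 78.0 CPM, and all were higher with Aβ42 (median 0.89, smallest edgeR adjusted p = 0.806). The adipocyte sums were 31.5 CPM or more in 5 of the 14 hearts and 7.17 CPM or less in the other 9.

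**Figure D5:**
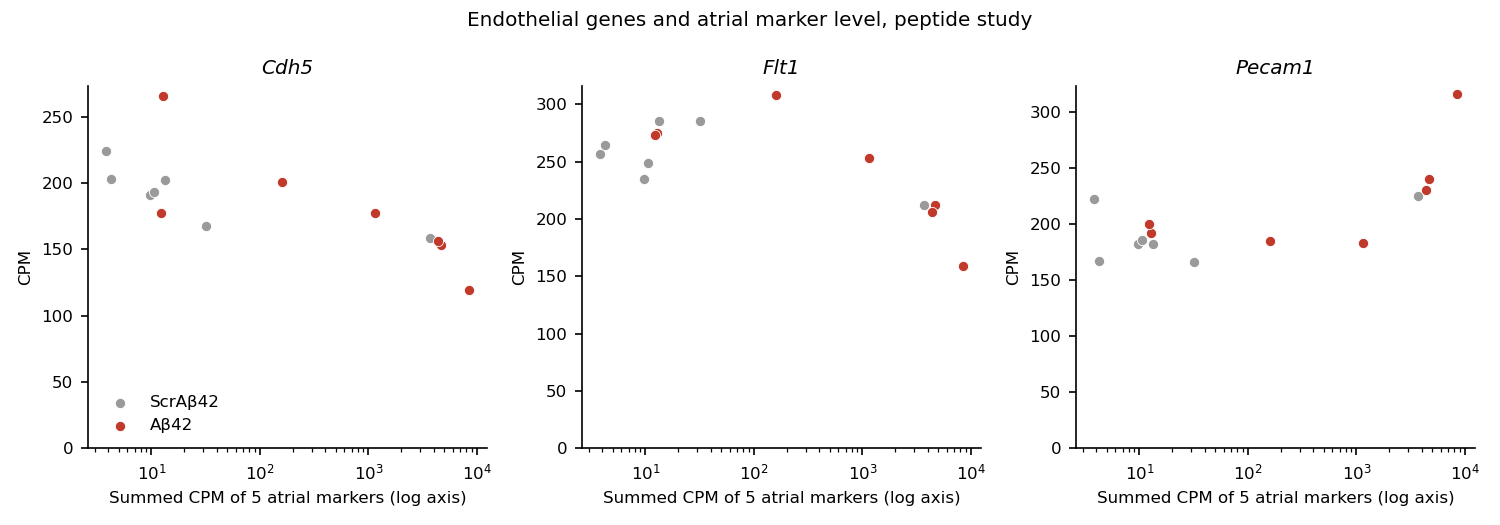
CPM of *Cdh5*, *Flt1* and *Pecam1* against the summed CPM of 5 atrial markers on a log axis, with 1 point per heart of the peptide study (7 ScrAβ42, 7 Aβ42). The hearts Abeta42_3457, Abeta42_3455, Abeta42_3458 and ScrAbeta42_3448, at the right of each panel, also highest in fibroblast markers and TMM factor and lowest in cardiomyocyte markers, are lowest for *Cdh5* and *Flt1* and highest for *Pecam1*.

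The 10 genes were also set against 8 measures of each library (6 marker scores, the share of mitochondrial counts and the TMM factor) over the 14 peptide hearts, and 21 of these 80 relations passed adjustment over the 80. They were 2 for the atrial score (*Cdh5* and *Flt1*), 3 for the adipocyte score (*Cdh5*, *Flt1* and *Tek*), 4 for the score of 8 cardiomyocyte markers, 6 for that of 7 fibroblast markers, 5 for the TMM factor and 1 for the mitochondrial share. None passed for the mesothelial score or that of pericytes and smooth muscle, and none of *Nos3*, *Vwf*, *Eng* and *Emcn* passed for any measure. Atrial and adipocyte sums were spread very unevenly over the hearts. In these relations the 2 farthest hearts are those farthest from the median of the measure, so they can differ between measures. For the atrial score *Cdh5* was at r = -0.78 (adjusted permutation p = 0.0099) and *Flt1* at -0.71 (0.0418), with rho of -0.75 and -0.64. Without the 2 farthest hearts these r were -0.80 and -0.685. For the adipocyte score *Cdh5*, *Flt1* and *Tek* were at -0.72, -0.725 and -0.746 (adjusted permutation p = 0.0418, 0.0469 and 0.0412). Without the 2 farthest hearts they were at -0.675, -0.715 and -0.652.

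*Flt1* was higher where the cardiomyocyte score was higher (r = 0.89, permutation p = 0.00022, adjusted p = 0.0044, rho = 0.79 with permutation p = 0.00107, and r = 0.72 without the 2 farthest hearts). *Pecam1* ran against it (r = -0.86, permutation p = 0.00076, adjusted p = 0.0099, rho = -0.75 with permutation p = 0.00283, and r = -0.62 without them). For the fibroblast score the signs were turned, with *Tie1* at r = -0.87 (permutation p = 7e-05, adjusted p = 0.0028, rho = -0.82 with permutation p = 0.00032) and *Pecam1* at r = 0.85 (permutation p = 0.00034, adjusted p = 0.00544, rho = 0.89 with permutation p = 0.00013). Without the 2 hearts farthest in the fibroblast score these r were -0.72 and 0.71. *Kdr* and *Tie1* also passed for the cardiomyocyte score, but their r fell from 0.69 to 0.31 and from 0.81 to 0.44 without the 2 farthest hearts. For the fibroblast score *Flt1* passed and kept an r of -0.75 without the 2 hearts farthest in that score. *Cdh5*, *Kdr* and *Tek* passed and were at -0.35, -0.37 and -0.43 without them, so that these relations rest on those hearts.

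All of these values share the library and its scaling factor, and 5 of the genes were tied to the TMM factor itself. *Flt1* was at r = -0.92 (permutation p = 6e-05, adjusted p = 0.0028, rho = -0.89 with permutation p = 0.00023, and r = -0.82 without the 2 farthest hearts). *Tie1* (r = -0.85, -0.53 without them), *Pecam1* (0.82, to 0.44), *Tek* (-0.74, to -0.40) and *Kdr* (-0.72, to -0.35) passed as well, with adjusted permutation p of 0.0099, 0.0283, 0.0418 and 0.038. *Cdh5* passed for the mitochondrial share (r = 0.72, permutation p = 0.00772, adjusted p = 0.0412, rho = 0.54 with permutation p = 0.058, and r = 0.43 without the 2 farthest hearts).

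In the antibody study, 70 relations were computed over 16 hearts and only those of *Tie1* and *Nos3* with the share of mitochondrial counts passed adjustment. *Tie1* was lower where that share was higher (r = -0.80, permutation p = 0.00039, adjusted p = 0.0238, rho = -0.76 with permutation p = 0.00032, and r = -0.68 without the 2 farthest hearts), and so was *Nos3* (r = -0.81, permutation p = 0.00068, adjusted p = 0.0238, rho = -0.72 with permutation p = 0.00333, and r = -0.71 without them). The mitochondrial share was 30.6% to 37.8% in 3D6 hearts and 25.9% to 37.7% in controls.

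Genes that act with the 10 were taken from lists, and no gene of any list passed adjustment in either study. Among VEGF ligands and co-receptors, 6 of 8 genes were lower in each study, with medians of -0.20 and -0.22. *Vegfa*, the main ligand of KDR and FLT1, was 318 ± 65.4 CPM with Aβ42 and 369 ± 92.9 CPM with ScrAβ42 (SD, n = 7 each), and 254 ± 27.7 CPM with 3D6 and 296 ± 64.6 CPM with the control antibody (SD, n = 8 each). *Flt4*, the lymphatic VEGF receptor, had the smallest unadjusted p of this list in both studies, 0.0159 for the peptide and 0.0204 for the antibody, with log2 fold changes of -0.30 and -0.22 (edgeR adjusted p = 0.693 and 0.946). *Nrp2*, a co-receptor, was -0.25 and -0.34 on the same scale (edgeR unadjusted p = 0.0271 and 0.0468, adjusted p = 0.715 and 0.946).

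Of the partners of the TIE receptors 4 could be tested for the peptide and 5 for the antibody, with medians of 0.10 and -0.17. The most abundant, *Ptprb*, a phosphatase that restrains TEK, had log2 fold changes of -0.03 and -0.08. Of 10 tested partners of endoglin, 8 were higher with Aβ42 and 4 with 3D6, with medians of 0.04 and -0.08. *Smad9*, a signal transducer of BMP receptors, was 0.65 and 0.42 (edgeR unadjusted p = 0.0654 and 0.0466, adjusted p = 0.765 and 0.946), at only 1.94 to 3.15 CPM in the 4 group means.

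Junction and surface genes of endothelium were higher with Aβ42 for 9 of 12 and lower with 3D6 for 10 of 12, with medians of 0.05 and -0.21. *Cldn5*, the tight junction claudin of endothelium, was 22.5 ± 6.13 CPM with 3D6 and 30.8 ± 8.25 CPM with the control antibody (SD, n = 8 each, log2 fold change -0.45, standard error 0.181, edgeR unadjusted p = 0.0219, adjusted p = 0.946). *Icam2*, an endothelial adhesion molecule, was -0.47 (edgeR unadjusted p = 0.0259) and *Cgnl1*, a junction plaque protein, -0.33 (edgeR unadjusted p = 0.0415). With Aβ42, *Gja5*, a connexin of arterial endothelium and atrial muscle, was 23.3 ± 24.2 CPM against 7.22 ± 4.00 CPM (SD, n = 7 each, log2 fold change 1.69, edgeR unadjusted p = 0.0110, adjusted p = 0.693).

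Partners of nitric oxide synthase were lower with 3D6 for 11 of 12 genes, with a median of -0.14, and higher with Aβ42 for 7 of 12, with a median of 0.06. *Cav1* and *Cavin1*, which build the caveolae where the enzyme sits, had log2 fold changes of -0.23 and -0.15 with 3D6 (edgeR unadjusted p = 0.0378 and 0.0382, adjusted p = 0.946 for each). Of 6 tested genes of the Weibel-Palade body and VWF handling, 4 were lower with 3D6 and 3 with Aβ42, with medians of -0.16 and 0.08, and *Cd63* was the only one under an unadjusted p of 0.05 (0.0366, log2 fold change -0.29 with 3D6).

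Endothelial transcription factors were lower for 12 of 19 genes with Aβ42 and for 16 of 19 with 3D6, with medians of -0.05 and -0.15. *Klf4*, a factor that answers to blood flow, was -0.27 and -0.19 (edgeR unadjusted p = 0.0262 and 0.0439, adjusted p = 0.714 and 0.946). Further endothelial genes were lower for 12 of 19 and for 18 of 19, with medians of -0.01 and -0.19. *Mmrn2*, an endothelial matrix protein, had log2 fold changes of 0.29 and -0.22 (edgeR unadjusted p = 0.0136 and 0.0236, adjusted p = 0.693 and 0.946), and *Robo4* and *Cd93*, both endothelial surface receptors, had -0.29 and -0.28 with 3D6 (edgeR unadjusted p = 0.0308 and 0.0192). *Apln*, the ligand apelin, was -0.85 with Aβ42 (edgeR unadjusted p = 0.0370, adjusted p = 0.740).

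By vessel type, arterial genes were lower for 6 of 12 with Aβ42 and for 11 of 12 with 3D6, with medians of -0.0095 and -0.24. *Dll4*, the arterial Notch ligand, was 21.9 ± 2.55 CPM with 3D6 and 26.9 ± 3.21 CPM with the control antibody (SD, n = 8 each, log2 fold change -0.29, standard error 0.0929, edgeR unadjusted p = 0.00508, adjusted p = 0.946), and *Notch4*, an endothelial Notch receptor, was -0.30 (edgeR unadjusted p = 0.0114). *Cxcl12* was 163 ± 43.2 CPM with Aβ42 and 215 ± 30.3 CPM with ScrAβ42 (SD, n = 7 each, log2 fold change -0.40, edgeR unadjusted p = 0.0225, adjusted p = 0.708). Venous and endocardial genes were higher for all 7 tested with Aβ42 (median 0.43) and lower for all 7 tested with 3D6 (median -0.29). Without mouse 15, whose summed level of this list was 239.5 CPM beside 109.0 to 185.4 CPM in the other controls, 6 of 7 were lower with a median of -0.15, and without mouse 22 the median was -0.16. Among peptide hearts the highest sums of this list were in Abeta42_3457, Abeta42_3458, Abeta42_3455 and ScrAbeta42_3448. These were 550.8, 350.8, 340.9 and 339.5 CPM, with the next at 252.3 CPM. The same hearts stood apart in atrial, fibroblast and cardiomyocyte markers, as given above. *Npr3*, a natriuretic peptide receptor of the endocardium, was 77.7 ± 50.9 CPM with Aβ42 and 30.9 ± 16.3 CPM with ScrAβ42 (SD, n = 7 each, log2 fold change 1.34, edgeR unadjusted p = 0.0100, adjusted p = 0.689), in the study whose atrial markers differ between hearts as given above.

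Fatty acid handling genes of heart capillaries were divided with Aβ42, 5 of 10 higher with a median of 0.0030, and 8 of 10 were lower with 3D6, with a median of -0.23. The most abundant of them, *Lpl*, lipoprotein lipase, was 3360 ± 271 CPM with 3D6 and 3170 ± 494 CPM with the control antibody (SD, n = 8 each), and *Cd36*, a fatty acid transporter, was 1040 ± 138 and 940 ± 193 CPM, with log2 fold changes of 0.08 and 0.15 (edgeR adjusted p = 0.946 for each). The summed level overlapped, at 4662 to 5673 CPM (median 5256) with 3D6 and 4087 to 5736 CPM (median 5172) in controls. Without mouse 22 the median log2 fold change was -0.03, and without Abeta42_3457 9 of 10 were higher with Aβ42, with a median of 0.11. Lymphatic genes were lower for 4 of 6 and for 5 of 7 tested, with medians of -0.18 and -0.15. Of the other cell types, the 7 fibroblast markers had medians of 0.02 and -0.08, the 8 markers of pericytes and smooth muscle 0.11 and -0.14, the 8 cardiomyocyte markers -0.09 and -0.05, the macrophage and leukocyte markers -0.13 in each study, and the 5 red cell markers -1.37 and -0.09. The medians of these 5 lists with 3D6 were below 0, beside -0.0098 over all genes. Lower with 3D6 were 7 of 7 fibroblast, 7 of 8 pericyte and smooth muscle and 6 of 8 cardiomyocyte markers. So were 6 of 7 macrophage and leukocyte and 5 of 5 red cell markers, so mostly negative signs were not confined to endothelial lists. The 3 platelet markers tested were all higher with 3D6, with a median of 0.34 (with Aβ42, 2 tested, median -0.03). The 2 mesothelial markers tested were lower with 3D6 (median -0.56), and of these *Wt1* was 3.69 ± 0.446 CPM against 5.05 ± 1.33 CPM (SD, n = 8 each, log2 fold change -0.45, edgeR unadjusted p = 0.0113, adjusted p = 0.946). Their list summed to 32.9 CPM in mouse 15 and to 11.5 CPM or less in the other antibody hearts. Without mouse 22 the 3D6 medians were -0.13 for VEGF ligands and co-receptors, -0.08 for transcription factors, -0.07 for further endothelial genes (15 of 19 lower) and -0.10 for arterial genes (9 of 11 lower), -0.06 for macrophage and leukocyte markers and 0.06 for red cell markers, while the cardiomyocyte median was -0.0033 and the platelet one 0.80. Without mouse 15 the Weibel-Palade list was at -0.08 and endoglin partners at -0.05. Without Abeta42_3457 the peptide medians were 0.22 for venous and endocardial genes (6 of 7 higher), -0.32 for fibroblast markers, -0.12 for pericytes and smooth muscle, 1.63 for atrial, 0.98 for adipocyte and 0.53 for mesothelial markers, and 12 of 19 further endothelial genes were higher. The peptide medians of the TIE, nitric oxide synthase and Weibel-Palade partners, of transcription factors, of arterial genes and of cardiomyocyte markers then lay between -0.03 and 0.0056. Several genes stand in more than 1 list, and the lists share hearts and cells with the 10 genes.

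The genes whose level followed the mean of the 10 most closely were named by Pearson r of log2 CPM over hearts, with group means subtracted, as a description with no test. In the peptide study these were *Prcp* (r = 0.85), *Gm11613* (0.83), *Suds3* (0.83), *Fam222b* (0.82) and *Reps1* (0.82) over 14 hearts. In the antibody study they were *Slfn5* (0.92), *Adgre5* (0.89), *Acer2* (0.87), *Phrf1* (0.85) and *Pkd1* (0.83) over 16 hearts. For the mean of *Cdh5*, *Kdr*, *Flt1*, *Tek* and *Tie1* alone, chosen after the values were seen, the peptide study gave *Tars2* (0.97), *Uchl3* (0.97), *Sord* (0.97), *Adgrl4* (0.96) and *Arap3* (0.96), of which *Adgrl4* is an endothelial adhesion receptor. For *Pecam1*, *Nos3*, *Vwf*, *Eng* and *Emcn* it gave *Syde1* (0.96), *Adgra2* (0.95), *Tmem108* (0.95), *Trim47* (0.93) and *Six5* (0.92).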

How the data were processed

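Total RNA of 30 left ventricles was made into stranded libraries. The authors trimmed reads, quantified them with Salmon against the GENCODE mouse transcriptome (GRCm38) and deposited counts per gene for the peptide study and estimated counts per transcript for the antibody study, neither normalized. How genes were summed in the first table is not given in the sources used here. The estimated counts were summed to genes with GENCODE M21 and rounded. The annotation lists 99.48% of gene and 99.21% of transcript identifiers, and 0.381% of estimated counts lay on unlisted transcripts, kept as rows of their own. A further 1 column had no matching label and was left out. Groups follow the labels, and each mouse is 1 replicate. Pairs of hearts within a group differed beyond sampling noise (lowest chi-square per degree of freedom 3.51).

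Genes averaging 10 or more counts per heart were tested per study, two-sided, with edgeR 4.0.16 in R 4.3.3 (TMM, quasi-likelihood, Benjamini-Hochberg), and log2 CPM used a prior count of 2. Single genes and transcript shares were also compared by exact permutation tests with scipy 1.17.1, and correlations by 100000 permutations of hearts within groups. Alternatives were DESeq2 1.42.0, other size factors, other count filters, marker scores as covariates and leaving out each heart. The mitochondrial share as a covariate, lengths per transcript and gene lists without single hearts were added after the data were seen. Scripts were tested on simulated data. The genes named are the 10 genes, the most abundant and most shifted genes of each list, those of a list with unadjusted p under 0.05, and the 5 genes most like the 10 in each study, of which the text gives a part. The 10 genes and the lists were chosen with earlier results of these data known. Levels per length use merged exons, and positions are 1-based.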

Additional observations from a re-analysis of the deposited data

Results flagged for a closer look

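Of 60 values by group that were examined, 6 held 1 heart far from the rest of its group, as judged by its gap to the nearest heart over the range. How many would do so by chance was not tested. *Pecam1* in Abeta42_3457 was 315.3 CPM, with the other 6 hearts of its group at 183.3 to 239.8 CPM. *Emcn* in mouse 4 (3D6) was 23.64 CPM, with the others at 28.68 to 33.11 CPM. Mouse 22 (control antibody) had both *Eng*, at 427.1 CPM beside 215.2 to 280.3 CPM, and *Nos3*, at 69.26 CPM beside 37.11 to 51.82 CPM. Mouse 4 (3D6) also had a Tek-203 share of 18.6% of *Tek*, where the others had 47.2% to 62.3%, and a Nos3-201 share of 74.9% of *Nos3*, where the others had 100%.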

How the results depend on the processing

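No alternative brought any of the 10 genes past an adjusted p of 0.05, the smallest being 0.388 for the peptide and 0.699 for the antibody. DESeq2 called 12 genes in the peptide study where edgeR called 0. Once the score of atrial markers entered the model, the peptide log2 fold changes turned to 0.134 (*Cdh5*), 0.0637 (*Kdr*), 0.103 (*Flt1*), 0.00551 (*Tie1*) and -0.0269 (*Nos3*). With the mitochondrial share as a covariate *Vwf* in the antibody study turned to 0.000116. Over all settings other than leaving out a heart, 95 of 100 gene values for the peptide and 99 of 100 for the antibody kept their sign.

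Leaving out each heart in turn, genes called ranged from 0 to 3 in the peptide study, and the median log2 fold change of the 10 genes from -0.0163 to 0.0398, since it lies near 0. All single-gene signs held for the peptide, and for the antibody *Vwf* alone changed, from -0.279 to 0.0525, the latter without mouse 22 (control antibody), where the median was -0.116. The differences in transcript share, in percentage points, ranged from -0.615 to 1.84 (*Pecam1*), -0.000624 to 0.144 (*Kdr*), -0.528 to 0.851 (*Flt1*), -2.13 to 6.80 (*Tek*), -3.59 to 0 (*Nos3*), -0.251 to 4.60 (*Eng*), 0.852 to 8.65 (*Vwf*), -3.03 to -1.20 (*Tie1*), -5.51 to -3.15 (*Emcn*) and 0.00929 to 0.0211 (*Cdh5*). The cause of these shifts was not tested. No paired analysis was possible because the replicate numbers name mice and the groups compared share none.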
